A study of Homo sapiens with 6 samples.

Results

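The SREBP genes are the genes that make cholesterol and fatty acids, together with the proteins that switch them on. This report covers 37 of them in HCC2814, a human lung squamous cell carcinoma (LUSC) line. The members were given by name and matched by gene symbol, and all 37 were among the 17448 genes listed and among the 12951 genes tested. They fall into 5 regulators, 20 genes of sterol synthesis and transport, 9 genes of fatty acid synthesis and 3 targets of the liver X receptors (LXR). RNA-seq was performed on 3 WT samples, which carry a non-targeting control guide (sgControl), and 3 MLST8-KO samples, which carry a guide against MLST8. Per the labels, both groups received the guides for 48 to 72 h before antibiotic selection. The study's methods give that span for collecting the virus and a shorter time for infecting the cells. Both groups grew in DMEM with 10% fetal bovine serum. The study's methods describe no cloning step for this line and do not say whether the MLST8-KO samples are pools. Per the labels, the 3 replicates of each group came from independent experiments. MLST8 is a subunit of both mTOR complexes, and the study used its loss to disable mTORC2, the complex that phosphorylates AKT.

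SREBP1 and SREBP2, encoded by SREBF1 and SREBF2, are made as membrane proteins of the endoplasmic reticulum. SCAP escorts them to the Golgi when sterols are low, where proteases free the part that enters the nucleus, while INSIG proteins hold SCAP back when sterols are high. SREBP2 acts mainly on cholesterol genes and SREBP1 mainly on fatty acid genes, and INSIG1 is itself a target of both, so that the pathway feeds back on itself. LXR is activated by oxysterols and turns on genes that export cholesterol, such as ABCA1 and ABCG1, and MYLIP, an E3 ligase that removes lipoprotein receptors. AKT and mTORC1 are known to raise SREBP activity.

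Counts summed to 14381673 to 15744154 per sample, and 3 counts, the most that a count of 0 allows, are worth 0.191 to 0.209 CPM (counts scaled by library size); this limit covers counting error only. MLST8 itself stood at 58.0, 56.9 and 60.7 CPM in the WT samples and at 25.5, 38.9 and 25.7 CPM in the MLST8-KO samples. Its log2 fold change was -0.96 ± 0.15 (SE, adjusted p = 0.00339), so transcript of the targeted gene remained in every MLST8-KO sample. Squamous markers such as KRT5 and TP63 were abundant in every sample. Of the 8, 6 were called higher, while 16.3% of all genes tested were. Their summed level was 11864 to 18774 TPM in WT and 23697 to 26464 TPM in MLST8-KO. Fibroblast markers summed to 10.1 to 13.5 TPM and endothelial markers to 0.47 to 1.11 TPM, and the immune markers analysed here to 46.1 to 80.1 TPM. Nearly all of the immune sum was CD68, at 45.7 to 79.6 TPM, which fell by 0.45 ± 0.15 on the log2 scale (adjusted p = 0.0413), while the leukocyte marker PTPRC was at 0 or 1 count. MLST8-KO replicate 1 stood apart: all 10 liver markers were highest there, and they summed to 286.5 TPM against at most 7.14 TPM in any other library, although ALB itself had only 53 counts. Liver is rich in sterol synthesis, so counts without that library are given below; the part of these markers in the results was not tested.

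Promoter sequences are shown for members that the results turn on, so that the elements known from SREBP targets can be seen. RefSeq (GRCh38.p14) gave the 250 bases before the transcription start for 32 of the 37 members and for 10271 of the genes tested, using the start listed first for the 9 members with more than 1. INSIG1 and HMGCS1 were higher in MLST8-KO, FDPS and SCD were lower, and SREBF2 holds the only match found to the sterol regulatory element TCACNCCAC. Capitals mark CCAAT, the NF-Y box, on either strand in INSIG1, HMGCS1, FDPS and SCD, and the sterol regulatory element TCACNCCAC in SREBF2.
INSIG1 (chr7:155297628-155297877, plus strand): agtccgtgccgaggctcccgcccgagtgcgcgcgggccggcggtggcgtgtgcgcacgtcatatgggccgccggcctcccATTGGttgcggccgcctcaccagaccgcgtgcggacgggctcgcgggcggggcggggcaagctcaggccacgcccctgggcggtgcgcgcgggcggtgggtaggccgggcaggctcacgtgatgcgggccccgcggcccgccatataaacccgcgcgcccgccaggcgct
HMGCS1 (chr5:43313413-43313662, minus strand): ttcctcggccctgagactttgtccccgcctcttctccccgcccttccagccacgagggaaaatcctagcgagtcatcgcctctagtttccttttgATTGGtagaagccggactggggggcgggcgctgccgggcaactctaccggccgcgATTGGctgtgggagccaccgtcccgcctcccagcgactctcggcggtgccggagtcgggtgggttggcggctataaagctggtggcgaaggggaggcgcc
FDPS (chr1:155308616-155308865, plus strand): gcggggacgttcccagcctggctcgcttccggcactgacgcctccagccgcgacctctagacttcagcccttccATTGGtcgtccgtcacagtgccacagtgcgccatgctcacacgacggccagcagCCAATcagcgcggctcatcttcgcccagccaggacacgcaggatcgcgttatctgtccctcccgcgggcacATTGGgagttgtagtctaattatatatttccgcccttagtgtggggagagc
SCD (chr10:100346983-100347232, plus strand): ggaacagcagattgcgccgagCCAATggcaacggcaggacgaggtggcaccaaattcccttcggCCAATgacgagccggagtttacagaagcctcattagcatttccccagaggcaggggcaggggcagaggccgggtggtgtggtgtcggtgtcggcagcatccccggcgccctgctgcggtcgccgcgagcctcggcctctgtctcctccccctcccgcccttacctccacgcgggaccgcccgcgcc
SREBF2 (chr22:41832855-41833104, plus strand): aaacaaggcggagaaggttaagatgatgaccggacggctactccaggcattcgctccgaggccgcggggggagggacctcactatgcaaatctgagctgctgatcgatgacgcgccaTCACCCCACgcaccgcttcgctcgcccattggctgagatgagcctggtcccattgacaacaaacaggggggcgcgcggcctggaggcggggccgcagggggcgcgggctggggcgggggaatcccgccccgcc

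NF-Y is a factor that binds beside SREBP at many of its targets. Its CCAAT box, on either strand, was present in 13 of 17 sterol promoters (76.5%), 3 of 8 fatty acid promoters (37.5%) and 2 of 5 regulator promoters (40%), against 35.0% of the promoters of all genes tested. INSIG1 holds 1 box, HMGCS1 and SCD hold 2 each, and FDPS holds 3. Of the members called higher, 4 of 7 hold the box (INSIG1, HMGCS1, STARD4 and MYLIP) and SREBF1, ACACA and FADS1 do not. At least 2 boxes were present in 3 of these 7. All 4 members called lower that have a promoter here (FDPS, EBP, SCD and ELOVL5) hold at least 2. So do 13 of the 32 members, and 1303 of the 10271 genes tested with a promoter. The members shown with the box were picked for it, and no test was made of box against direction. The sterol regulatory element TCACNCCAC was found in 1 of 32 members, SREBF2, 133 bases before its start, against 0.857% of all genes tested. The E-box CACGTG, another sequence that SREBP1 can bind, was present in 5 of 32 members (INSIG1, SCAP, SC5D, ELOVL5 and ABCA1), against 8.94%. The GC box GGGCGG was present in 28 of 32 members, against 67.9%. AGGTCA, the core of nuclear receptor sites, was present in 1 of 32, ELOVL6, against 8.22%. These are matches of letters in a short window, and they say nothing of whether a factor was bound. An element that differs from the letters searched was not counted, so a promoter with no match may still hold one.

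The comparison of MLST8-KO with WT asks whether the loss of MLST8 moved the pathway as a block. Of the 37 members, 7 were higher and 6 lower in MLST8-KO, and the other 24 did not pass the threshold of edgeR's quasi-likelihood test (Benjamini-Hochberg adjusted p under 0.05 over all genes tested). Among all genes tested, 16.3% were called higher and 15.7% lower, and the members, at 18.9% and 16.2%, were close to this background. Every MLST8-KO sample lay above every WT sample in CPM for 9 members and below for 8, and the groups overlapped for 20; over all genes tested, 24.8% lay above and 24.2% below. The median log2 fold change of the members was 0.04, beside 0.00 for all genes tested, and no member passed a log2 fold change of 1 in either direction, while 620 of all genes tested did. So the shares called, in either direction, and the median sat at the level of all genes. In bulk samples fewer cells of a type and less RNA per cell cannot be told apart.

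**Figure D1:**
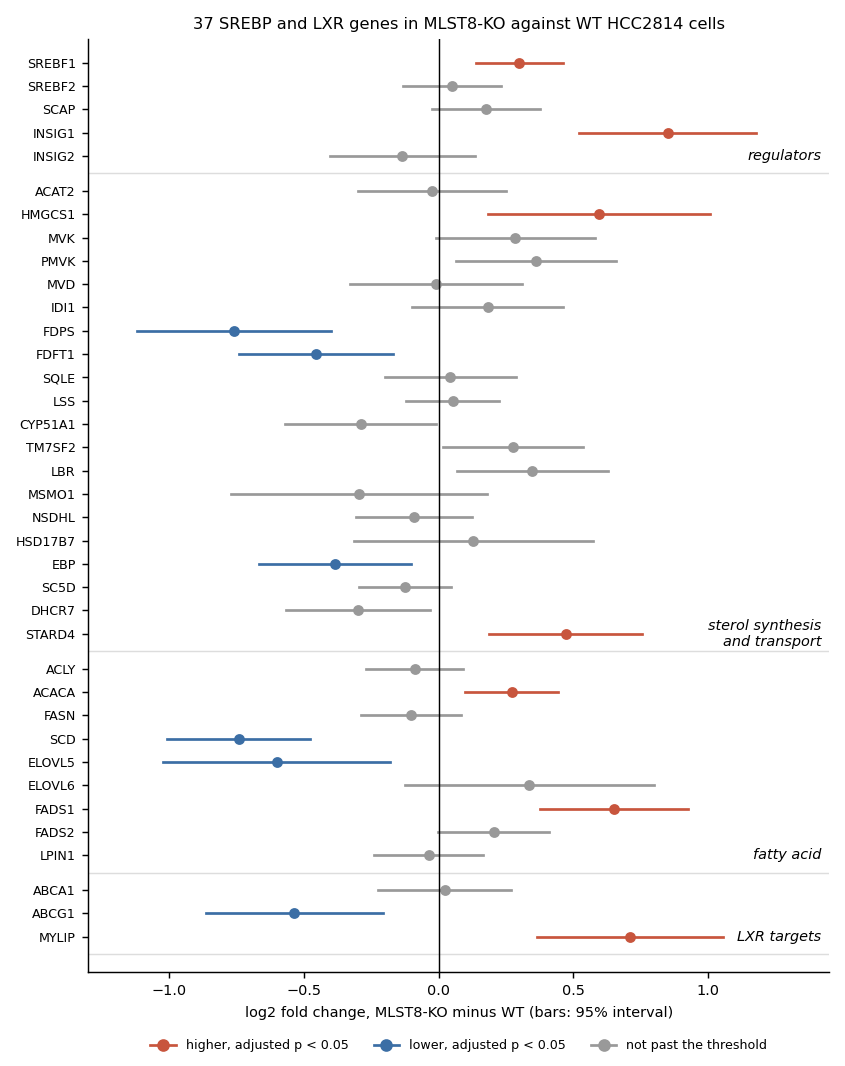
Log2 fold change of each member, MLST8-KO minus WT, with its 95% interval from edgeR (n = 3 samples per group), ordered by role. Red points (7) are higher and blue points (6) lower past the threshold; both colors occur among the sterol, fatty acid and LXR genes, and the values run from -0.76 for FDPS to 0.85 for INSIG1.

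The 13 called members are given here by role, beside 16.3% higher and 15.7% lower among all genes tested. Of the 5 regulators, 2 were higher (SREBF1 and INSIG1, 40%) and none lower. Of the 20 sterol genes, 2 were higher (HMGCS1 and STARD4, 10%) and 3 lower (FDPS, FDFT1 and EBP, 15%). Both sterol shares were under those of all genes, and the median log2 fold change of the sterol genes was 0.02. Of the 9 fatty acid genes, 2 were higher (ACACA and FADS1, 22.2%) and 2 lower (SCD and ELOVL5, 22.2%), with a median of -0.04. Of the 3 LXR targets, MYLIP was higher, ABCG1 lower and ABCA1 neither. INSIG1, SCD, FADS1 and MYLIP passed the threshold under all 15 other settings, and the other 9 lost it under at least 1. Without MLST8-KO replicate 1, 3 members were higher and 2 lower, and without WT replicate 2 the counts were also 3 and 2. On the TPM scale, whose median over all genes lies higher, limma on log2(TPM + 1) called 10 members higher and 1 lower; among all calls, 71.6% were then higher, against 51.0% with edgeR.

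Among the regulators, INSIG1 (chr7:155297776-155310235, GRCh38), the sterol-dependent anchor of SCAP, changed the most. Its level was 63.5, 66.0 and 97.7 CPM in the WT samples and 145, 137 and 127 CPM in the MLST8-KO samples. All 3 MLST8-KO samples lay above all 3 WT samples, of which WT replicate 3 was the highest. This was a log2 fold change of 0.85 ± 0.15 (SE; 95% interval 0.52 to 1.18; adjusted p = 0.00432), or 1.80-fold, and leaving out each sample in turn gave 0.74 to 1.07. INSIG2, its paralog that is not under the same sterol feedback, was at 14.7 ± 1.56 CPM in WT and 13.3 ± 0.439 CPM in MLST8-KO (SD, n = 3), a log2 fold change of -0.13 (95% interval -0.40 to 0.13). Per transcript length, INSIG1 exceeded INSIG2 4.41 ± 0.66-fold in WT and 8.70 ± 0.34-fold in MLST8-KO, as ratios of TPM.

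SREBF1 (chr17:17810399-17837002) was at 137, 140.1 and 146 CPM in WT and 175, 168 and 178 CPM in MLST8-KO. The groups did not overlap, and the spread within each was small. Its log2 fold change was 0.30 ± 0.07 (adjusted p = 0.0135), with an adjusted p of 0.0690 without WT replicate 2 (log2 fold change 0.29) and 0.0593 without MLST8-KO replicate 1 (0.29). The gene overlaps RAI1 on the opposite strand, and whether the counting used strand is not given in the sources used here. SREBF2, the sterol arm, stood at 223, 231 and 256 CPM in WT and 234, 240.2 and 259.6 CPM in MLST8-KO, with overlapping groups and a log2 fold change of 0.05 (95% interval -0.13 to 0.23, adjusted p = 0.663). The TPM ratio of SREBF2 to SREBF1 was 1.36 ± 0.05 in WT and 1.14 ± 0.05 in MLST8-KO. SCAP had a log2 fold change of 0.18 (95% interval -0.02 to 0.38, adjusted p = 0.157). Whether the changes of SREBF1 and SREBF2 differ from each other was not tested.

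**Figure D2:**
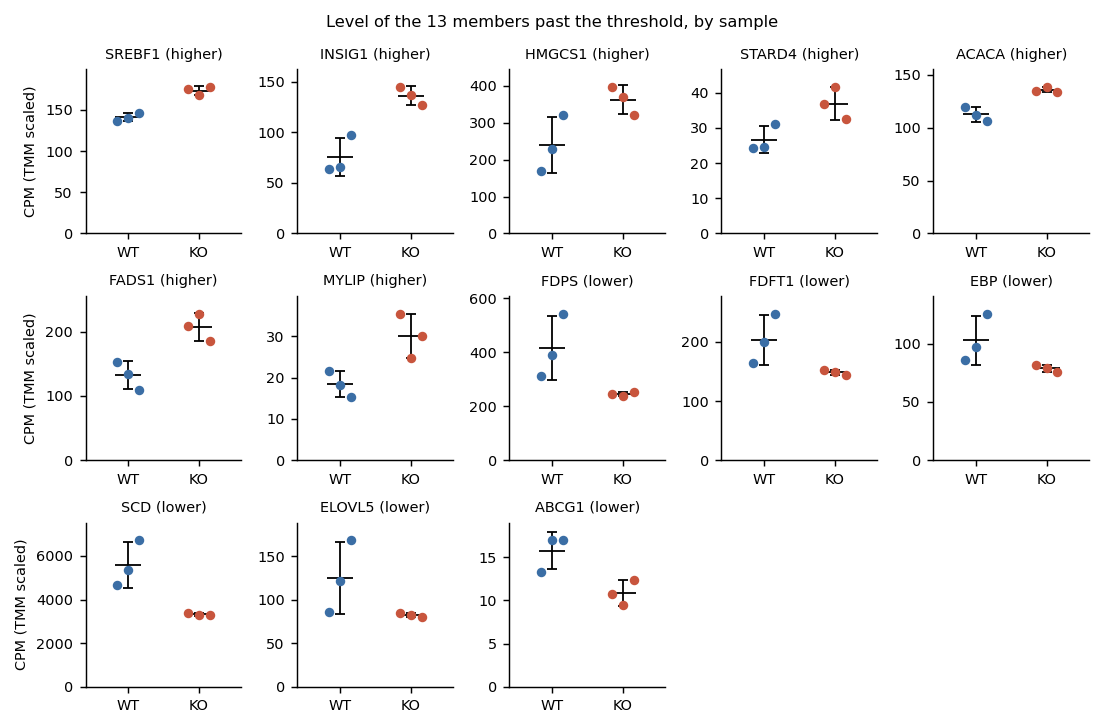
TMM-scaled CPM of the 13 called members in each of the 3 WT and 3 MLST8-KO samples (points; horizontal bars are means and error bars SDs; each axis starts at 0 and has its own scale). The groups are separate in every panel but HMGCS1, where WT replicate 3 (320.2 CPM) meets MLST8-KO replicate 3 (320.1 CPM), and in FDPS, SCD and ELOVL5 the WT samples spread more widely than the MLST8-KO samples.

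The sterol genes can be read along the pathway, from acetyl-CoA to cholesterol. ACAT2 makes acetoacetyl-CoA, HMGCS1 makes HMG-CoA, and MVK, PMVK and MVD convert mevalonate to isopentenyl diphosphate. None of these early genes was lower. HMGCS1 (chr5:43289395-43313512) was at 169.9, 229.9 and 320.2 CPM in WT and at 397, 370.0 and 320.1 CPM in MLST8-KO. The groups met at WT replicate 3 and MLST8-KO replicate 3. The log2 fold change was 0.59 ± 0.19 (95% interval 0.18 to 1.01, adjusted p = 0.0344). The call was lost without WT replicate 2 (0.56), MLST8-KO replicate 1 (0.52), 2 (0.58) or 3 (0.68), with adjusted p of 0.113, 0.114, 0.101 and 0.0576 in that order, and with DESeq2 (0.0959). Leaving out WT replicate 1 gave 0.40, and leaving out WT replicate 3 gave 0.86.

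The kinases that follow were not called. MVK had a log2 fold change of 0.28 (95% interval -0.01 to 0.58, adjusted p = 0.124) and PMVK of 0.36 (0.07 to 0.66, adjusted p = 0.0603). ACAT2 was at -0.02 (-0.30 to 0.25), MVD, the decarboxylase, at -0.01 (-0.33 to 0.31) and IDI1, the isomerase, at 0.18 (-0.10 to 0.46); the first of these overlaps SOD2 and TCP1 on the opposite strand and MVK overlaps MMAB. PMVK passed the threshold under 6 of the 15 other settings, MVK under 2, and the other 3 under none.

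The next enzyme, FDPS, was lower in MLST8-KO. FDPS (chr1:155308748-155320666) makes farnesyl diphosphate, from which sterols, dolichol, ubiquinone and the anchors of prenylated proteins are all built. It stood at 311, 391 and 543 CPM in WT and at 246, 237 and 252 CPM in MLST8-KO. Every MLST8-KO sample was below every WT sample, and the MLST8-KO samples were close together while the WT samples were not. The log2 fold change was -0.76 ± 0.16 (95% interval -1.12 to -0.40, adjusted p = 0.00848), a fall of 40.9%, and it ranged from -0.93 without WT replicate 1 to -0.52 without WT replicate 3. The setting that lost the call was limma on log2(TPM + 1), at an adjusted p of 0.0511. GENCODE lists 8 pseudogenes named after FDPS, so its count is uncertain where reads could be split between copies.

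FDFT1, squalene synthase, commits farnesyl diphosphate to sterols. Its level was 164, 199.8 and 248 CPM in WT and 153, 149 and 144 CPM in MLST8-KO. The lowest WT sample lay just above the highest MLST8-KO sample. FDFT1 fell by 0.46 ± 0.13 on the log2 scale (adjusted p = 0.0234), and the call was lost without WT replicate 2 (-0.48, adjusted p = 0.0667), MLST8-KO replicate 1 (-0.48, 0.0664), 2 (-0.46, 0.0746) or 3 (-0.43, 0.0794). Without WT replicate 3 the value was -0.29 (adjusted p = 0.0354), and the 3 limma fits on TPM gave -0.33 with adjusted p of 0.129, 0.114 and 0.0695. SQLE and LSS, which oxidise squalene and close it into lanosterol, had log2 fold changes of 0.04 (95% interval -0.20 to 0.29) and 0.05 (-0.12 to 0.23), and neither was called under any setting.

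After lanosterol, 9 members carry out the demethylation, isomerisation and reduction that end in cholesterol. EBP (chrX:48521158-48528716), the sterol isomerase, stood at 85.5, 96.8 and 126 CPM in WT and 81.2, 79.2 and 75.3 CPM in MLST8-KO. The groups were separate but close, with WT replicate 1 near MLST8-KO replicate 1. EBP fell by 0.39 ± 0.13 on the log2 scale (adjusted p = 0.0410). It held the threshold in only 1 of the 6 fits that leave out a sample, the one without WT replicate 1 (-0.50); without WT replicates 2 and 3 the values were -0.43 and -0.22 and without MLST8-KO replicates 1, 2 and 3 they were -0.41, -0.39 and -0.36, with adjusted p of 0.0795 to 0.121. The 3 limma fits on TPM gave -0.26 (adjusted p of 0.115 to 0.186) and upper quartile scaling gave -0.33 (0.0625). The reductases TM7SF2 (0.28, adjusted p = 0.0938) and LBR (0.35, adjusted p = 0.0573), which share the same step, had positive log2 fold changes and no overlap between groups in CPM. CYP51A1, the demethylase, was at -0.29 (adjusted p = 0.0999) and DHCR7, the last reductase of its branch, at -0.30 (adjusted p = 0.0808). DHCR7 passed the threshold with DESeq2 (adjusted p = 0.0474) and without WT replicate 1 (-0.41, 0.00767), LBR under 5 of the 15 other settings, DESeq2 among them (0.0336), TM7SF2 under 3 and CYP51A1 under 1. SC5D was at -0.12, NSDHL at -0.09 and HSD17B7 at 0.13, each with an interval that spans 0. The groups of DHCR7 and SC5D also had no overlap in CPM, with MLST8-KO lower by a narrow margin. CYP51A1 and HSD17B7 also have named pseudogenes, and TM7SF2 overlaps VPS51.

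MSMO1, the methyl sterol oxidase, varied the most within WT, relative to its mean, among the sterol genes, at 135, 187 and 290.2 CPM, against 176, 171 and 152 CPM in MLST8-KO. All 3 MLST8-KO samples fell between WT replicates 1 and 3. Its log2 fold change of -0.29 had a 95% interval from -0.77 to 0.18 (adjusted p = 0.309).

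STARD4 (chr5:111496033-111512590), a carrier that moves cholesterol between membranes, was at 24.2, 24.6 and 31.1 CPM in WT and 36.6, 41.6 and 32.4 CPM in MLST8-KO. The groups did not overlap, with a narrow gap between WT replicate 3 and MLST8-KO replicate 3. It rose by a log2 fold change of 0.47 ± 0.13 (adjusted p = 0.0202), and it lost the threshold without WT replicate 2 (0.41, adjusted p = 0.0878), MLST8-KO replicate 1 (0.48, 0.0647) or MLST8-KO replicate 2 (0.38, 0.0834).

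**Figure D3:**
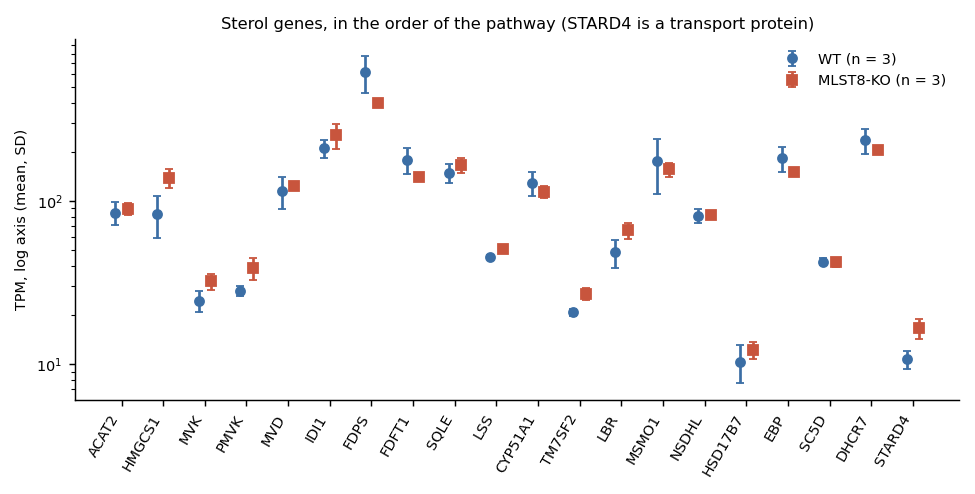
TPM (log axis; mean and SD of 3 samples) of the 20 sterol genes in pathway order in WT (blue circles) and MLST8-KO (red squares). FDPS is the most abundant in both groups, at 616 TPM in WT and 397 TPM in MLST8-KO, while HMGCS1 moves from 82.8 to 138 TPM; TPM and CPM differ in scale between the groups, so tests are given on CPM.

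The members' levels per transcript length spanned a wide range. SCD was the most abundant member, at 1862 ± 315 TPM in WT and 1203 ± 50.4 TPM in MLST8-KO, and FDPS was next, at 616 ± 158 and 397 ± 0.870 TPM. The lowest was ELOVL6, at 3.84 ± 1.18 and 5.06 ± 0.292 TPM. The summed TPM of the 20 sterol genes overlapped between groups, at 2055, 2385 and 2964 in WT and 2408, 2360 and 2140 in MLST8-KO. The TPM of HMGCS1 over that of FDPS did not overlap, at 0.126, 0.138 and 0.137 in WT and 0.385, 0.366 and 0.294 in MLST8-KO. In TPM, HMGCS1 and FDPS were each separate between groups in opposite directions, so their ratio could not overlap and its separation adds no support. This pair was chosen after its values were seen, so the ratio is a description with no test. The ratio varied less among WT samples than either gene did alone.

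**Figure D4:**
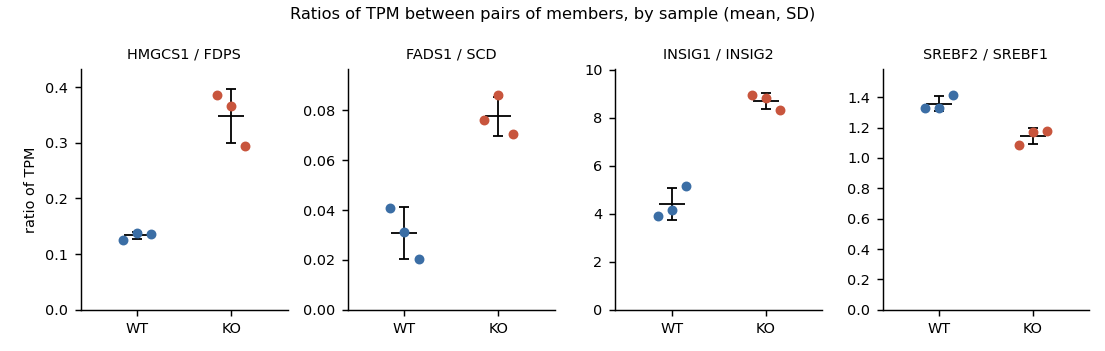
Ratios of TPM between pairs of members in each of the 3 WT and 3 MLST8-KO samples (points; bars are means and SDs; axes start at 0). The HMGCS1 to FDPS, FADS1 to SCD and INSIG1 to INSIG2 ratios were higher in every MLST8-KO sample than in any WT sample, and the SREBF2 to SREBF1 ratio was lower. Only the SREBF2 to SREBF1 ratio was planned, and all are descriptions with no test. In TPM, FADS1 and SCD were each separate between groups in opposite directions, and so were HMGCS1 and FDPS, so these ratios could not overlap.

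Fatty acid synthesis begins with ACLY, which splits citrate to acetyl-CoA, ACACA, which carboxylates it, and FASN, which builds palmitate. ACACA (chr17:37084988-37406818) was at 119.5, 112 and 106 CPM in WT and 135, 138 and 134 CPM in MLST8-KO. The groups were separate. The log2 fold change was 0.27 ± 0.08 (adjusted p = 0.0243), and the call held in only 1 of the fits that leave out a sample, the one without WT replicate 1 (0.32). Without WT replicates 2 and 3 the values were 0.26 and 0.23, and without MLST8-KO replicates 1, 2 and 3 they were 0.28, 0.26 and 0.28, with adjusted p of 0.0518 to 0.0970. FASN (848, 931 and 970.5 CPM in WT; 830.0, 814 and 917 CPM in MLST8-KO) and ACLY had overlapping groups, with log2 fold changes of -0.10 (95% interval -0.29 to 0.08) and -0.09 (-0.27 to 0.09).

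SCD (chr10:100347124-100364834), which puts the double bond into stearate and palmitate, was the member with the smallest adjusted p. It stood at 4658, 5348 and 6723 CPM in WT and at 3404, 3312 and 3280.2 CPM in MLST8-KO. Every MLST8-KO sample was below every WT sample, and WT replicate 3 was the highest. The log2 fold change was -0.74 ± 0.12 (95% interval -1.01 to -0.48, adjusted p = 0.00367), a fall of 40.2%, and it ran from -0.86 to -0.59 when each sample was left out. SCD held 0.458% to 0.648% of all counts in WT and 0.332% to 0.350% in MLST8-KO, and 75.3 ± 1.90% of the summed TPM of the 9 fatty acid genes in WT against 65.7 ± 0.41% in MLST8-KO. Without SCD, that sum was 562 to 641 TPM in WT and 598 to 652 TPM in MLST8-KO, with overlapping groups. A pseudogene is named after SCD as well.

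ELOVL5, which lengthens polyunsaturated fatty acids, was at 85.5, 122 and 168 CPM in WT and 85.1, 82.2 and 80.4 CPM in MLST8-KO. WT replicate 1 lay at the level of the MLST8-KO samples. ELOVL5 fell by 0.60 ± 0.19 on the log2 scale (adjusted p = 0.0357). Leaving out WT replicate 1 gave -0.81, leaving out WT replicate 3 gave -0.33 (adjusted p = 0.0607), and the call was also lost without WT replicate 2 (-0.63) or MLST8-KO replicates 1 (-0.62), 2 (-0.60) or 3 (-0.58), with adjusted p of 0.0846 to 0.107. The 3 limma fits on TPM gave -0.54 to -0.55 (adjusted p of 0.0705 to 0.151).

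FADS1 (chr11:61799625-61829318), a desaturase of polyunsaturated fatty acids, moved opposite to SCD and ELOVL5. Its level was 152, 135 and 109 CPM in WT and 208, 228 and 185 CPM in MLST8-KO. The groups were separate, and WT replicate 3, the highest WT sample for SCD, was the lowest here. FADS1 rose by 0.65 ± 0.12 on the log2 scale (95% interval 0.38 to 0.93, adjusted p = 0.00567), and 0.53 to 0.77 when each sample was left out. FADS2, its neighbour on the opposite strand with which it overlaps, was at 24.3, 23.9 and 24.2 CPM in WT and 27.7, 26.2 and 29.5 CPM in MLST8-KO, without overlap, but its log2 fold change of 0.20 was not called (adjusted p = 0.113). The TPM ratio of FADS1 to SCD was 0.0202 to 0.0408 in WT and 0.0703 to 0.0861 in MLST8-KO. It adds no support of its own, because FADS1 and SCD were each separate between groups in opposite directions. ELOVL6, the elongase of palmitate, had a log2 fold change of 0.34 (95% interval -0.13 to 0.80) and LPIN1, the phosphatidate phosphatase, of -0.04 (-0.24 to 0.17).

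The LXR targets did not move together. MYLIP (chr6:16129125-16148248) was at 21.6, 18.3 and 15.4 CPM in WT and 35.5, 24.8 and 30.2 CPM in MLST8-KO. The groups were separate, with MLST8-KO replicate 1 the highest. Its log2 fold change was 0.71 ± 0.16 (95% interval 0.36 to 1.06, adjusted p = 0.00930), and 0.58 without MLST8-KO replicate 1. ABCG1 (chr21:42199689-42297244), an exporter of cholesterol to lipoproteins, was at 13.3, 16.9 and 17.0 CPM in WT and 10.7, 9.45 and 12.4 CPM in MLST8-KO. All 3 MLST8-KO samples were lower, by a small margin over WT replicate 1. It fell by 0.54 ± 0.15 on the log2 scale (adjusted p = 0.0216), and the call was lost without WT replicate 2 (-0.48, adjusted p = 0.0896), MLST8-KO replicate 1 (-0.53, 0.0723) or 2 (-0.45, 0.0798), and with limma on log2(TPM + 1) (-0.38, 0.0949) and log2(TPM + 0.1) (-0.43, 0.0838). ABCA1, the exporter to lipid-poor apolipoprotein, was at 39.0 ± 4.75 CPM in WT and 39.6 ± 3.66 CPM in MLST8-KO, a log2 fold change of 0.02 (95% interval -0.22 to 0.27).

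The WT samples differed among themselves in these genes more than the MLST8-KO samples did. WT replicate 3 was the highest WT library in 17 of the 20 sterol genes (TPM) and WT replicate 1 the lowest in 15. The median coefficient of variation of the 20 sterol genes was 18.2% in WT and 6.99% in MLST8-KO, and it was larger in WT for 17 of them. Over the 11188 tested genes with a mean of at least 50 counts, the medians were 9.08% and 7.28%, and the value was larger in WT for 6755. Among the MLST8-KO samples, replicate 1, the library with liver markers, was the highest in 12 of the 20 sterol genes and replicate 3 the lowest in 14. How often each library was the highest or lowest over all genes was not counted. What set the WT samples apart was not tested.

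**Figure D5:**
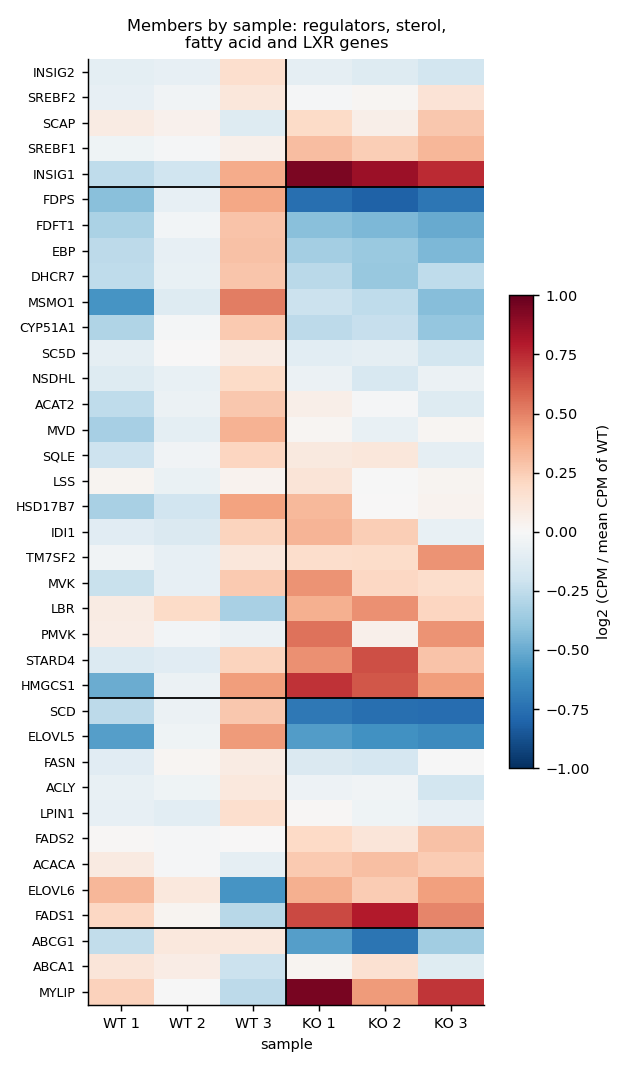
Each member's CPM in each sample relative to the mean of the WT samples, on a log2 scale (red higher, blue lower), grouped into regulators, sterol, fatty acid and LXR genes. WT replicate 3 is red for most sterol genes and WT replicate 1 blue, while INSIG1, FADS1 and MYLIP are red in all 3 MLST8-KO samples and FDPS and SCD are blue in all 3.

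Other genes of these pathways are given from 5 lists. The lists, like the members, were chosen with earlier results of these data known. Their shares beside those of all genes tested are therefore descriptions, with no test. In the list of SREBP processing and degradation, 1 of 11 genes was higher (9.09%) and 5 lower (45.5%), beside 16.3% and 15.7% of all genes tested, and their median log2 fold change was -0.06. MBTPS1, the protease that makes the first cut in SREBP in the Golgi, was higher by 0.32 ± 0.08 (adjusted p = 0.0176), though not without WT replicate 2 (0.29, adjusted p = 0.0855), MLST8-KO replicate 1 (0.28, 0.0832) or 2 (0.32, 0.0565). RNF139, an E3 ligase of the endoplasmic reticulum, fell by 0.46 ± 0.08 (adjusted p = 0.00521). PAQR3, a Golgi anchor of SCAP, fell by 0.39 ± 0.09 (adjusted p = 0.00977), and by 0.33 and 0.34 without WT replicate 2 and MLST8-KO replicate 1 (adjusted p of 0.0531 and 0.0542); the 3 limma fits gave -0.27 to -0.28 (0.0503 to 0.0721).

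Of the isoprenoid branch, which leaves the pathway at the products of FDPS, none of 10 genes was higher and 4 (40%) were lower, beside 16.3% and 15.7% of all genes tested, with a median of -0.23. GGPS1, which makes geranylgeranyl diphosphate, fell by 0.44 ± 0.09 on the log2 scale (adjusted p = 0.00695), NUS1, a subunit of the enzyme that makes dolichol, by 0.51 ± 0.11 (adjusted p = 0.00927) and FNTA, the shared subunit of the prenyltransferases, by 0.38 ± 0.08 (adjusted p = 0.00932). NUS1 lost its call with limma on log2(TPM + 1) (-0.38, adjusted p = 0.0608) and log2(TPM + 0.1) (-0.39, 0.0520). GGPS1, NUS1 and FNTA moved in the direction of FDPS. Of the 10 genes in the list, 8 had negative log2 fold changes and 2 had positive ones that were not called.

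Of the genes for activation, elongation and supply of fatty acids, 2 of the 18 tested were higher (11.1%) and 1 lower (5.56%), under the shares of all genes tested; the remaining listed gene, ACSL5, was not tested because its counts were too low. ACSS2, which makes acetyl-CoA from acetate, was at 181, 230.3 and 323 CPM in WT and 78.0, 69.3 and 78.9 CPM in MLST8-KO. No MLST8-KO sample came near a WT sample. Its log2 fold change of -1.70 ± 0.18 (adjusted p = 0.00281) was larger in size than that of any of the 37 members. ACSL3, which activates fatty acids, was higher by 0.57 ± 0.09 (adjusted p = 0.00330) and MID1IP1, an activator of ACACA, by 0.52 ± 0.09 (adjusted p = 0.00413).

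In sterol trafficking and storage, 1 of 12 genes was higher (8.33%) and 2 lower (16.7%), beside 16.3% and 15.7% of all genes tested. The median log2 fold change of the list was 0.13. OSBP, which carries sterols to the Golgi, fell by 0.67 ± 0.14 on the log2 scale (adjusted p = 0.00749), a call lost with limma on log2(TPM + 1) (-0.53, adjusted p = 0.0505). LRP8, a lipoprotein receptor, rose by 0.44 ± 0.11 (adjusted p = 0.0135), with adjusted p of 0.0582 without WT replicate 2 and 0.0531 without MLST8-KO replicate 2 (0.43 in both). STARD3, a sterol carrier of endosomes, fell by 0.28 ± 0.09 (adjusted p = 0.0374), a call lost without WT replicates 2 and 3 (-0.32 and -0.22) and without MLST8-KO replicates 1 and 2 (-0.24 and -0.27), with the 3 limma fits (-0.17) and with upper quartile scaling (-0.23). Among 9 LXR receptors and other targets, none was higher and 2 (22.2%) were lower, beside the same shares of all genes tested. NR1H3, which encodes LXRα, was at 8.82, 7.99 and 9.09 CPM in WT and 5.23, 5.87 and 5.19 CPM in MLST8-KO. It fell by 0.67 ± 0.15 (adjusted p = 0.00901).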

How the data were processed

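Poly(A)-selected RNA from 3 WT and 3 MLST8-KO samples was sequenced by BGI on the DNBSEQ platform. Extraction was with an RNAqueous Micro kit per the labels and a Direct-zol kit per the study's methods. The authors filtered reads, mapped the rest with HISAT (GRCh38.p12), used Bowtie2 for the assignment to genes, and deposited expected counts, TPM and FPKM for each gene in each sample. The FPKM values, group averages and the authors' table of their own comparison (fold changes and p-values) were not used. TPM served for levels between genes. Of the count values, 12.4% were not whole, so expected counts were rounded, although the design had assumed whole counts. Of the symbols, 25 turned into dates were restored by Entrez identifier.

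The groups were compared with edgeR 4.0.16 under R 4.3.3 (TMM, filterByExpr by group, glmQLFit, glmQLFTest; Benjamini-Hochberg over 12951 genes; threshold 0.05). The SE was the absolute log2 fold change over the square root of F. CPM are TMM-scaled. Groups came from the labels. Replicates differed by more than sampling noise (chi-square per gene 7.00 to 26.6). The settings varied were the tool (DESeq2 1.42.0, or limma 3.58.1 on log2(TPM + 1), log2(TPM + 0.1) and log2(TPM + 1) at a mean TPM of at least 1), the scaling (DESeq2 size factors or upper quartile), the filter (none, or a minimum of 10 counts per sample), the replicate number as a block, and each sample left out. Coordinates are from GENCODE release 29. Named are all members, MLST8 and, per other list, up to 3 called genes with the smallest adjusted p; markers are named as a check. An item that this rule names is not reported here. The members and lists were chosen with earlier results of these data known. The fit was tested on simulated data. Which guide each replicate carried is not given in the sources used here.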

Additional observations from a re-analysis of the deposited data

How the results depend on the processing

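Of the 13 called members, INSIG1, SCD, FADS1 and MYLIP stayed past the threshold under all 15 alternatives. With main counts of 7 higher and 6 lower, members called were 7 and 7 with DESeq2, 10 and 1 with limma on log2(TPM + 1), 10 and 2 on log2(TPM + 0.1), 13 and 3 at a mean TPM of at least 1, and 9 and 5 with upper quartile scaling. Of sterol genes (2 and 3), the limma fits called 4 and 0, 4 and 1, and 6 and 1, and upper quartile scaling 4 higher. Of fatty acid genes (2 and 2), each limma fit called 1 lower. Of all genes (2116 and 2030), the limma fits called 821, 854 and 1088 lower. The share of calls that were higher was 51.0% in the main setting, 71.6%, 71.6% and 70.7% with limma, and 62.0% with upper quartile scaling; the median log2 fold change of all genes was 0.00 in the main setting, and 0.05, 0.11, 0.09 and 0.06 in these.

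With each sample left out in turn, members higher ranged from 3 to 10 and lower from 2 to 9, sterol genes higher from 0 to 4 and lower from 1 to 6, fatty acid genes higher from 1 to 3 and lower from 1 to 2, and all genes higher from 971 to 2692 and lower from 850 to 2651. The low counts came without WT replicate 2 (971 and 1044), MLST8-KO replicate 1 (979 and 850) and MLST8-KO replicate 2 (1136 and 1091). MLST8 kept its call throughout.

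Members that changed sign were all uncalled. In the order of the limma fits above, ACAT2 was at 0.0940, 0.0951 and 0.0940, MVD at 0.129, 0.130 and 0.129, LPIN1 at 0.0650, 0.0665 and 0.0650, NSDHL at 0.0223, 0.0225 and 0.0223, ACLY at 0.0200, 0.0201 and 0.0200, and FASN at 0.00706, 0.00710 and 0.00706. With upper quartile scaling, ACAT2 was at 0.0329, MVD at 0.0488 and LPIN1 at 0.0192. With a sample left out, the ranges were -0.14 to 0.13 for ACAT2, -0.15 to 0.20 for MVD, -0.0515 to 0.16 for SQLE, -0.52 to 0.0455 for MSMO1, -0.15 to 0.0106 for NSDHL, -0.00974 to 0.38 for HSD17B7, -0.0921 to 0.0554 for LPIN1 and -0.0752 to 0.0886 for ABCA1. The cause of these changes was not tested.

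With the replicate number as a block, 8 members were higher and 6 lower (LBR was added, adjusted p = 0.0138), all 13 calls were kept, MVD was at 0.0161, and 2261 and 2157 of all genes were called. Deviations of same-numbered samples correlated at 0.0882, 0.0757 and 0.151, and each sample correlated best with its own number. Between samples of different number the values ran from -0.122 to 0.0393. Whether same-numbered samples shared an experiment is not given in the sources used here and was not tested.

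The members with the lowest levels, HSD17B7 and ELOVL6, stood at 4.69 to 10.5 CPM in every sample and had SEs of 0.20 and 0.21 on the log2 scale.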
